A study of Mus musculus with 4 samples.

Results

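Class 12 and class 4 are 2 groups of nuclei in the fetal mouse mammary gland, both with high scores for the p53-family motif that marks basal cells, and they differ most in the accessibility of AP-1 motifs. They were compared here within each fetal library. The members are the nuclei that the authors' deposited table places in class 12 or class 4 in the fetal libraries. The deposited classes are numbers only. The names low-AP-1 basal-leaning nuclei (class 12) and basal-like nuclei (class 4) are used here and do not come from that table. There are 809 such nuclei among 2577 fetal nuclei and 7846 nuclei of the whole series. Class 12 held 92 nuclei in fetal library 1 and 247 in fetal library 2, and class 4 held 132 and 338. In the adult libraries class 12 held 0 nuclei and class 4 held 6.

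Single-nucleus ATAC-seq, in which the transposase Tn5 tags open chromatin, was run on wild-type CD1 mice, an outbred strain. The fetal group is mammary tissue at embryonic day 18 and the adult group is mammary tissue at 8 weeks of age, with 2 biological replicates of each. Cells of both groups had been sorted by the surface protein EpCAM and for absence of lineage markers, so the nuclei are an epithelial selection and not the whole tissue. The labels do not say how many animals were pooled for a replicate. Both classes of a library come from the same library, so class 12 was compared with class 4 within library. This leaves 1 residual degree of freedom per feature. The tests moderate the spread between the 2 libraries over all features. A printed SE or p-value therefore does not rest on the library spread of that feature alone.

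AP-1 is a family of dimeric transcription factors made of FOS, JUN, ATF and related proteins, which bind a short palindromic site and are induced quickly by growth factors and stress. The p63 protein, encoded by Trp63, is the defining regulator of basal epithelial cells in stratified and glandular epithelia. In the fetal mammary gland the lineages are not yet fully separated, and basal and luminal features can be found in the same cells.

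The classes were drawn by the authors from these same nuclei, and the method is not given in the sources used here. The p-values below are therefore no independent evidence that the classes differ. They set each difference against a spread moderated over all features, so a low p does not mean that the 2 libraries agree in size. The gene span of Cntnap2, for example, passed with log2 differences of -1.27 and -0.444 in libraries 1 and 2. The nuclei of class 12 held 629493 and 2178832 reads in libraries 1 and 2, and those of class 4 held 971201 and 3108478. A class 12 nucleus had a median of 5818 and 7110 reads, and a class 4 nucleus 6224.5 and 7081.5. No barcode was shared between libraries.

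The names of the classes were first checked against marker genes, by reads over each gene with 2000 bases on either side. Summed over 16 basal markers, class 12 had 1030 and 1050 reads per 1000000 of its reads (RPM) in libraries 1 and 2, and class 4 had 992 and 1030. The fetal luminal-like classes 5 and 9 had 768 and 726, and 841 and 783. Summed over 16 luminal markers, class 12 had 743 and 781 RPM, class 4 had 756 and 732, class 5 had 1060 and 1140, and class 9 had 1140 and 1210. By these sums both classes lay on the basal side of classes 5 and 9 in both libraries, but single basal markers differed. Krt17 had 23.8 and 15.1 RPM in class 12, below the 36.7 and 28.2 of class 9. Col17a1 had 42.9 and 35.8 in class 12 and 50.1 and 49.7 in class 9. In the other direction, Trp63 had 154 and 157 in class 12 and 94.1 and 87.6 in class 9. Cdh3 had 149 and 108 in class 12 and 81.8 and 75.3 in class 9. The adult basal nuclei of classes 1 and 8 had 1890 and 1640 RPM over the basal markers, above all fetal classes.

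The mean score of the Fos motif, a chromVAR deviation score that compares the accessibility of regions holding a motif with that of matched regions, was 0.02 and -0.03 in class 4. In class 12 it was -3.76 in library 1 and -4.79 in library 2. Class 12 lay below class 4 in both libraries, by 4.27 ± 0.281 score units (SE, limma, adjusted p = 0.0251 over all 427 motif columns). Since the name of class 12 refers to AP-1, this difference describes the classes more than it tests them. Of the 427 columns, 41 passed an adjusted p of 0.05 (9.6% of those tested), 17 of them lower in class 12 (3.98%) and 24 higher (5.62%). Some columns hold identical scores, and the 41 correspond to 35 distinct columns, 16 lower and 19 higher.

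The lower motifs were mostly those of AP-1 and of relatives that bind AP-1-like sites. Of 16 distinct columns on the list of AP-1 and AP-1-like motifs, which includes Smarcc1, 12 fell and 0 rose, with a median difference of -2.23 against a median of 0.06 over all 388 distinct columns. The Smarcc1 column had the most negative difference, at -4.37 ± 0.301 (SE), with means of 0.02 and -0.03 in class 4 and of -3.83 and -4.93 in class 12. SMARCC1 is a core subunit of the SWI/SNF chromatin remodelling complex, and its score column moved with that of Fos. Bach1, a repressor with an AP-1-like site, had a difference of -3.57 ± 0.29. Its means were -0.16 and -0.07 in class 4 and -3.21 and -4.14 in class 12.

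Fosb, a FOS paralogue, differed by -3.53 ± 0.205, and Bach2, a paralogue of Bach1, by -3.45 ± 0.258. Jund and Junb, the JUN-side partners, differed by -3.01 ± 0.21 and by -2.95 ± 0.256. Nfe2l2, the regulator of the antioxidant response, differed by -2.41 ± 0.192. For all of these the class 4 means lay near 0, between -0.25 and 0.05, and the class 12 means of library 2 were lower than those of library 1. Fosl1, Batf and Jun fell less, by 2.05, 2.02 and 1.36, and Fosl2 by 0.44. The Batf column is identical to that of Batf3. Nfe2l1, Mafg and Atf3 had differences of -0.59, -0.45 and -0.29 that did not pass (limma, adjusted p = 0.0699, 0.0636 and 0.101), and Mafk was at -0.06. Nfe2l1, Mafg and Atf3 passed without the library block (0.00114, 0.00413 and 0.0391 in limma). They also passed in the fit on the 8 means of classes 4, 12, 5 and 9 (0.00155, 0.00219 and 0.016). None of them passed in nuclei at or above the median reads of classes 4 and 12 (0.11, 0.0946 and 0.0904 in limma), where no motif column passed. With the median over nuclei only Nfe2l1 passed (0.0353), and in nuclei of 4000 to 12000 reads Nfe2l1 and Mafg did (7.16e-06 and 0.00274).

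**Figure D1:**
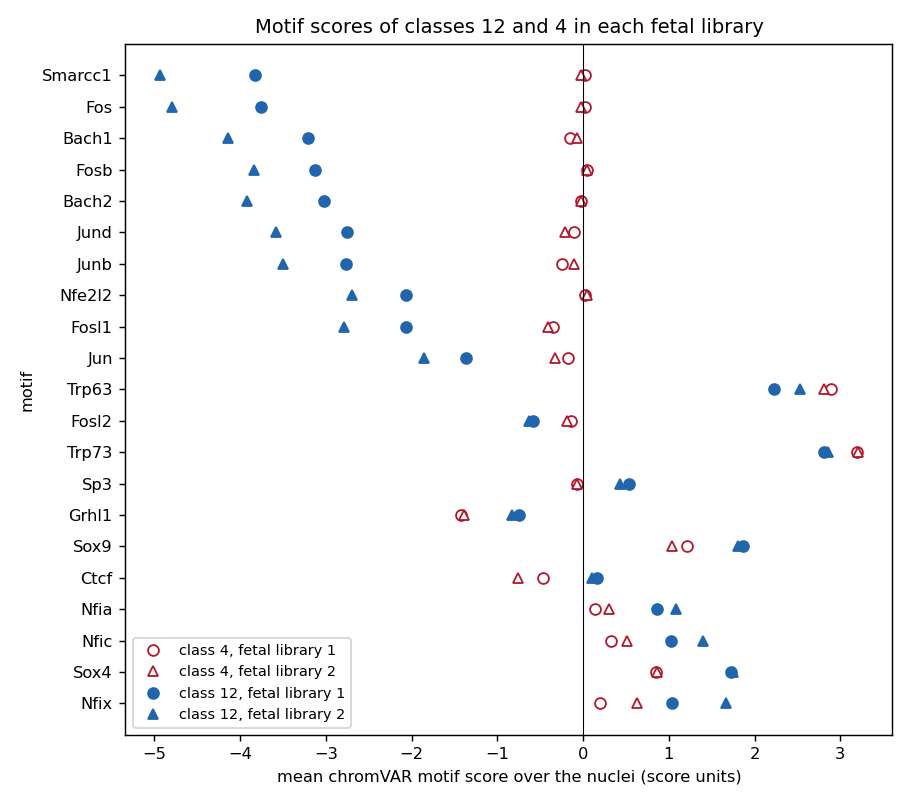
Mean chromVAR motif score (horizontal, score units) of 21 motifs in class 4 (open symbols) and class 12 (filled symbols), with circles for fetal library 1 and triangles for fetal library 2. The AP-1 columns lie near 0 in class 4 and as low as -4.93 in class 12, while Trp63 and Trp73 lie above 2 in both classes.

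Of the 19 distinct columns that were higher in class 12, 3 were of the nuclear factor I, 4 of the SOX and 3 of the KLF/SP list. Nfix, a nuclear factor I protein, had mean scores of 0.19 and 0.63 in class 4 and of 1.04 and 1.66 in class 12. The difference was 0.94 ± 0.0731 (SE, limma, adjusted p = 0.0251). All 3 distinct nuclear factor I columns rose, Nfic by 0.80 ± 0.0728 and the shared column of Nfia and Nfib by 0.75 ± 0.0535. In both libraries class 12 lay above class 4 for each of them, but the class 4 mean of library 2 was itself above that of library 1.

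Sox4, a SOXC factor of embryonic tissues, had means of 0.84 and 0.87 in class 4 and of 1.72 and 1.75 in class 12, a difference of 0.88 ± 0.052. Sox9, which marks several epithelial progenitors, had means of 1.21 and 1.04 in class 4 and of 1.86 and 1.8 in class 12, a difference of 0.70 ± 0.0611. Of 11 distinct SOX columns 4 rose, the others being Sox12 (0.54) and Sox21 (0.41), and 0 fell. The remaining SOX columns had differences from 0.22 (Sox2) upward that did not pass. The median over the family was 0.35.

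Grhl1, a grainyhead-like regulator of epithelial junctions, was negative in both classes, with means of -1.42 and -1.39 in class 4 and of -0.75 and -0.83 in class 12 (difference 0.62 ± 0.0603). GC-box columns of the KLF/SP list rose in 3 of 5 cases, Sp3 by 0.55, Klf7 by 0.52 and Sp1 by 0.41. Ctcf, the architectural protein that bounds chromatin loops, rose by 0.75 ± 0.0821, from -0.47 and -0.76 to 0.16 and 0.10. None of the RUNX, TCF-LEF, FOX, GATA, STAT, ETS or nuclear receptor columns on the fixed lists passed, in either direction.

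Scores of the p53 family were high in both classes. Trp63 had means of 2.89 and 2.81 in class 4 and of 2.23 and 2.53 in class 12, a difference of -0.48 ± 0.12 that did not pass (limma, adjusted p = 0.107). Trp73, whose protein binds the same sites, had means of 3.19 and 3.20 in class 4 and of 2.81 and 2.85 in class 12 (difference -0.37 ± 0.0526, adjusted p = 0.0517 in limma). Both passed, lower in class 12, without the library block (0.00739 and 0.00837 in limma) and in the fit on 8 means (0.0107 and 0.0159). They also passed in nuclei of 4000 to 12000 reads (0.00101 and 0.0262). Neither passed with the median over nuclei (0.088 and 0.214 in limma). Nor did they pass in nuclei at or above the median reads (0.127 and 0.0837 in limma), where no motif column passed, Fos included. In the luminal-like classes 5 and 9 the Trp63 means ran from -0.78 to -0.61. Tead3 and Tead4, the DNA partners of YAP, had differences of -0.29 ± 0.191 and -0.21 ± 0.137 that did not pass.

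Within a class the score varied widely from nucleus to nucleus. The median Fos score was -3.36 and -4.26 in class 12 and 0.18 and -0.05 in class 4. A Fos score above 0 was found in 6 of 92 and 9 of 247 class 12 nuclei (6.52% and 3.64%), against 71 of 132 and 165 of 338 class 4 nuclei (53.8% and 48.8%). Of class 12 nuclei, 45 (48.9%) and 154 (62.3%) lay below the 5th percentile of class 4 in their library, which was -3.54 and -3.42. The 2 distributions overlapped in both libraries. A Trp63 score above 0 was found in 93.5% and 90.3% of class 12 nuclei, in 97.0% and 94.4% of class 4 nuclei, and in 23.9% to 28.4% of class 5 and class 9 nuclei.

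The Fos score of class 12 also went with the number of reads of the nucleus. Across the 92 and 247 nuclei of class 12 the correlation of the Fos score with reads was r = -0.343 and -0.616, and across the 132 and 338 nuclei of class 4 it was -0.0349 and 0.0161. The correlation with the Trp63 score was -0.28 and -0.348 in class 12 and 0.0553 and 0.0206 in class 4. Nuclei of a library share its depth and preparation, and a score becomes larger in size with more reads, so these values are descriptions. With only nuclei at or above 6795 reads, the median of both classes, the Fos difference was -5.39 and its adjusted p 0.0837 (limma), and 0 columns passed. With nuclei of 4000 to 12000 reads, 75 columns passed.

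**Figure D2:**
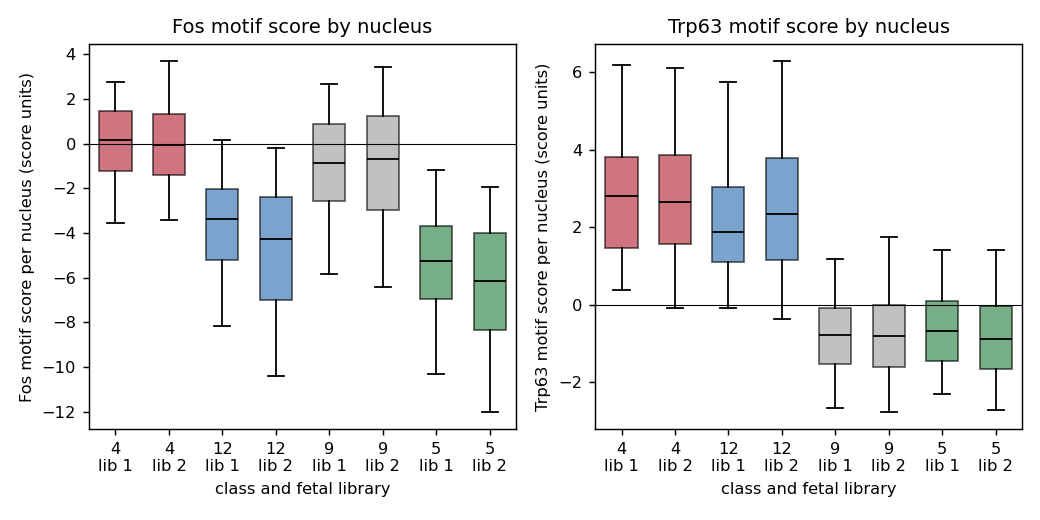
Fos (left) and Trp63 (right) motif scores per nucleus (vertical, score units) by class and fetal library: boxes span the quartiles, lines are medians and whiskers reach the 5th and 95th percentiles. The Fos medians of class 12 are -3.36 and -4.26 against 0.18 and -0.05 in class 4, while the Trp63 boxes of both lie above 0.

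The same contrast exists on the luminal side, where class 5 is low in AP-1 scores and class 9 is the main luminal-like class. The Fos score was -5.45 and -6.39 in class 5 and -1.09 and -0.97 in class 9, a difference of -4.89. Over the 388 distinct columns the 12 minus 4 differences and the 5 minus 9 differences correlated at r = 0.97, a description across columns that share motifs and libraries. The difference between the 2 contrasts passed for 0 of 427 columns (0%), with 47 at an unadjusted p under 0.05. The lowest adjusted p was 0.073 (limma). It was reached for Ctcf, with a difference between the contrasts of 0.59 (0.75 on the basal side and 0.16 on the luminal side). For Trp63 it was -0.53 (adjusted p = 0.153 in limma), with -0.48 on the basal and 0.06 on the luminal side.

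**Figure D3:**
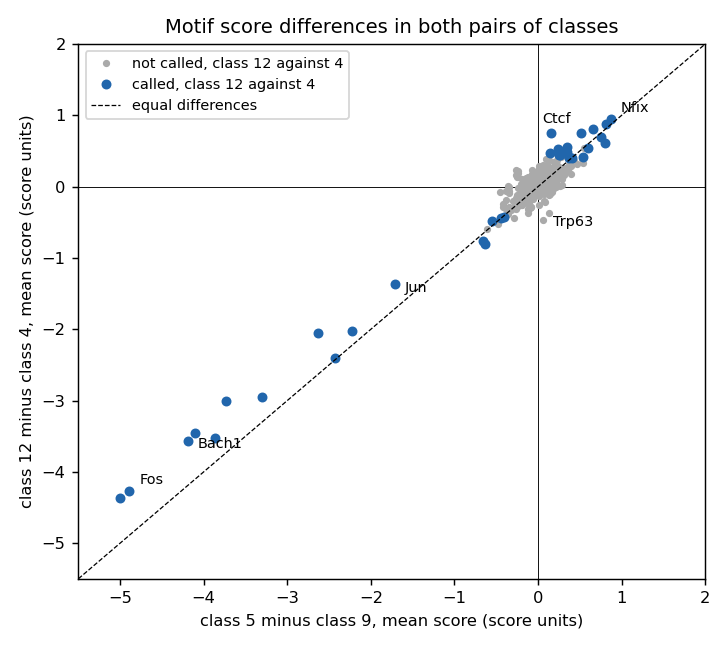
Differences in mean motif score for 388 distinct motif columns, class 5 minus class 9 on the horizontal and class 12 minus class 4 on the vertical axis (score units), with called columns in blue and a dashed line of equal differences. Fos stands at -4.89 and -4.27, and Trp63 at 0.06 and -0.48.

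Single distal regions gave few calls. Distal regions were tested where the 4 sums of library and class averaged 10 or more reads. Of these 17681 regions 6 passed (0.0339%), 2 higher and 4 lower in class 12 (edgeR's quasi-likelihood test, Benjamini-Hochberg adjusted p under 0.05). The median tested region had 16 reads per sum. An unadjusted p under 0.05 was found for 1391 regions, 526 higher and 865 lower. Class 4 held more reads than class 12, so a region open mainly in class 4 passed the filter of 10 reads more easily. The 4 regions called lower passed it through their class 4 reads, with 0 to 11 reads in each class 12 sum. How far this bears on the balance of lower and higher regions was not tested. Of the 2493 regions that averaged 30 or more reads, 27 passed when fitted alone. Scaling by all reads left 3 calls, 2 higher and 1 lower, with no filter on reads there were 0 higher and 8 lower, and DESeq2 called 1 region. Every omission of a single sum named here and below was made in a fit on the 8 sums of classes 4, 12, 5 and 9, which called 5 distal regions. Leaving out 1 sum from it left 0 to 4 calls, 0 of them without class 12 of library 2. Among the alternatives that gave a p, the region near Eef1g passed in 12 of 13, the region near Rn18s-rs5 in 7 of 13, that in Gm31223 in 5 of 12, those in Zc3h7a and Gm36653 in 4 of 13 each and that in Rad23b in 3 of 10.

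The region at chr19:8982886-8983885 (build mm10), 4706 bases from Eef1g, a translation elongation factor gene, and outside any annotated gene, held 49 and 95 reads in class 4 and 2 and 6 in class 12. In RPM these were 50.5 and 30.6 against 3.18 and 2.75, a log2 difference of -3.66 ± 0.534 (SE, edgeR, adjusted p = 0.00112). Class 9 held 32.4 and 30 RPM and class 5 held 7.15 and 6.07. The adult basal, luminal progenitor and mature luminal nuclei held 31.7 to 48.9. It was thus open in all of these groups apart from classes 12 and 5.

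The region at chr11:7423305-7424304, in the lncRNA gene Gm36653, held 31.9 and 32.8 RPM in class 4 and 6.35 and 5.05 in class 12 (log2 difference -2.60 ± 0.508, adjusted p = 0.0483 in edgeR). Class 9 held 14.5 and 15.5 and class 5 held 3.58 and 3.92. Adult basal nuclei held 22.9 and 31.8, adult mature luminal nuclei 11.3 and 14.8, and adult luminal progenitors 1.07 and 4.47. The region at chr8:80961759-80962758, in the lncRNA gene Gm31223, held 28 and 61 reads in class 4 and 0 and 4 in class 12 (log2 difference -4.01 ± 0.763, adjusted p = 0.0379 in edgeR). With so few reads its size varied, at -5.30 and -3.28 in libraries 1 and 2. It was -7.37 in nuclei of 4000 to 12000 reads and -9.01 without class 12 of library 2. A region at chr4:55356679-55357678, in Rad23b, a nucleotide excision repair gene, held 16 and 51 reads in class 4 and 0 and 0 in class 12. Set against 3 reads over both libraries, its level in class 12 was at least 15.4-fold lower (adjusted p = 0.023 in edgeR). Its mean of 16.8 reads lies under the minimum of 20 reads for named regions, and it was named after its values were seen.

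Both regions that were higher in class 12 were open in every class examined, and class 4 was the lowest of the 4 fetal classes. The region at chr17:39844166-39845165 had the most reads of the 6 and lies 1189 bases from Rn18s-rs5, a pseudogene of 18S ribosomal RNA. It held 1300 and 933 RPM in class 4 and 1950 and 1470 in class 12 (log2 difference 0.57 ± 0.0333, adjusted p = 7.16e-13 in edgeR). It did not pass in DESeq2 (0.213), with no filter on reads (0.997), in nuclei of 4000 to 12000 reads (0.399), without library 1 or 2 of class 4 (0.609 and 0.387) or without library 2 of class 12 (0.245). Class 9 held 3060 and 1870. Ribosomal RNA genes have many copies, and how reads from such copies were placed is not given in the sources used here. The region at chr16:11143573-11144572, in the gene Zc3h7a, held 64.9 and 48.6 RPM in class 4 and 156 and 101 in class 12 (log2 difference 1.10 ± 0.2, adjusted p = 0.023 in edgeR). Class 5 held 207 and 118 there and class 9 held 199 and 127. Among adult groups, mature luminal nuclei held most in both regions, 257 and 200 RPM in Zc3h7a and 4870 and 3710 near Rn18s-rs5. Whether the 2 regions vary separately was not tested.

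The difference between the 12 to 4 and the 5 to 9 contrasts passed for 0 of 26719 distal regions (0%; 1021 at an unadjusted p under 0.05, edgeR). Across 16665 regions tested in both fits the log2 differences correlated at r = 0.453, again a description across regions.

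**Figure D4:**
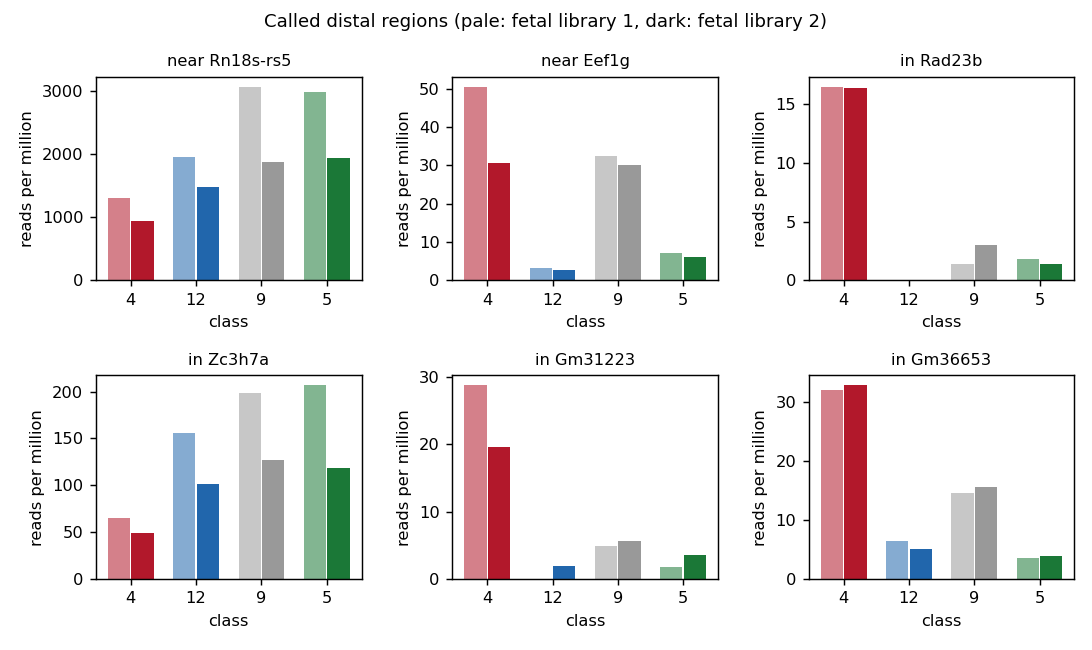
RPM (vertical) in the 6 called distal regions for fetal classes 4, 12, 9 and 5, with pale bars for library 1 and dark bars for library 2. The 4 regions that are lower in class 12 have 0 to 6.35 RPM there against 16.4 to 50.5 in class 4.

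Reads of class 12 lay more often in promoter regions. The share of reads in promoter regions was 24.3% and 21.9% in class 12 (exact 95% intervals 24.2% to 24.5% and 21.8% to 21.9%) and 20.8% and 19.2% in class 4. The difference was 3.56 and 2.67 percentage points, a mean of 3.12 ± 0.633 (SD, n = 2). The share in distal regions was 40.7% and 39.4% in class 12 and 42.1% and 41.0% in class 4, a mean difference of -1.49 ± 0.142 percentage points (SD, n = 2). In nuclei of 4000 to 12000 reads the distal difference was -0.465 percentage points. The intervals take each read as independent, though both ends of a fragment are listed, so they are too narrow even for counting error. They do not cover the spread between nuclei or libraries. Classes 5 and 9 had promoter shares from 22.5% to 26.1%, so class 4 had the lowest promoter share of the 4 classes in each library.

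No single promoter stood out. Of 10761 promoter regions tested, 0 passed (0%; 393 at an unadjusted p under 0.05 in edgeR and 65 in DESeq2, where 0 passed as well). The lowest adjusted p was 0.997. Among promoter regions that overlap a protein-coding gene, that of Cav1 (chr6:17305503-17306502), the main protein of caveolae, had the lowest unadjusted p. It held 51.5 and 45 RPM in class 4 and 23.8 and 22 in class 12 (log2 difference -1.27 ± 0.286, not passing). The region shared by Hnrnpk and Rmi1 (chr13:58401794-58402793) held 24.7 and 30.2 in class 4 and 84.2 and 60.1 in class 12 (1.07 ± 0.257, not passing). The other 2 of the 4 lowest lay in the lncRNA genes LOC102631992 and LOC115489488, with log2 differences of -2.59 and -1.58. The former had the lowest unadjusted p of all and lay 115 bases from the protein-coding gene Clcf1. Scaling by all reads in place of TMM factors raised the median log2 difference of all promoter regions from -0.004 to 0.20, so these differences are relative to the typical promoter.

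Counted over whole genes with 2000 bases on either side, 44 of 16011 gene spans passed (0.275%; edgeR), 42 lower and 2 higher in class 12. Nrg1 (chr8:31805452-32893609 with its flanks), which encodes an ErbB ligand, had the lowest p, with 975 and 2790 reads in class 4 and 424 and 1137 in class 12 (log2 difference -0.78 ± 0.0977, adjusted p = 2.28e-11). Plet1 (chr9:50492525-50507639), a surface glycoprotein of epithelial progenitors, had 57 and 289 reads in class 4 and 11 and 45 in class 12 (-2.13 ± 0.311, adjusted p = 5.41e-08 in edgeR). Cd44 (chr2:102809141-102903669), the hyaluronan receptor, had 137 and 369 reads in class 4 and 28 and 173 in class 12 (-1.05 ± 0.211, adjusted p = 0.00148 in edgeR). The fall of Cd44 was larger in library 1 (-1.74) than in library 2 (-0.67), and that of Plet1 was similar in both (-1.79 and -2.25). In class 5 against class 9, Nrg1 differed by -0.44, Plet1 by -1.41 and Cd44 by -0.53 (edgeR, adjusted p = 0.0172, 4.32e-06 and 0.321). The difference between the 2 contrasts passed for 0 of 16642 gene spans (875 at an unadjusted p under 0.05, edgeR).

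The 12 gene spans with the lowest p, chosen after their values were seen, all fell. Besides these they included Cntnap2, Lrp1b, Camk2d, Nav3, Magi2, Dst, Sestd1 and Trio, with log2 differences from -1.39 to -0.54. Of these 8, Lrp1b, Nav3, Magi2, Dst and Trio did not pass without the library block, Magi2, Dst and Trio also not with scaling by all reads or in nuclei of 4000 to 12000 reads, and none passed in DESeq2. Each of the 8 also failed to pass without at least 1 of the sums. Dst encodes dystonin, whose epithelial form anchors keratin to hemidesmosomes, and Camk2d a calcium-dependent kinase. Cntnap2, Lrp1b and Magi2 are very long genes best known from neurons. Also named after their values were seen are 4 others of the 42 that fell, Fn1 (fibronectin, -1.16 ± 0.302), Itga5 (a fibronectin receptor subunit, -1.33 ± 0.333), Col4a1 (a collagen IV chain, -0.63 ± 0.155) and Col18a1 (a collagen XVIII chain, -0.56 ± 0.138). None of these 4 passed without the library block, with scaling by all reads, in DESeq2 or in nuclei of 4000 to 12000 reads. Fn1 also did not pass with no filter on reads (adjusted p = 0.059 in edgeR), and its log2 difference was -1.90 in library 1 and -0.77 in library 2. Nrg1 passed in all 13 alternatives that gave a p, Plet1 in 12 and Cd44 in 10, where Cd44 did not pass without library 1 of class 4 or of class 12 (adjusted p = 0.18 and 0.114 in edgeR) or in DESeq2.

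The 2 gene spans that rose were Igfbp5, an insulin-like growth factor binding protein, and Fbxo32, a ubiquitin ligase subunit. Igfbp5 (chr1:72856065-72876865) had 40 and 118 reads in class 4 and 46 and 210 in class 12 (log2 difference 1.05 ± 0.259, adjusted p = 0.0288 in edgeR). Fbxo32 (chr15:58173879-58216892) had 124 and 312 reads in class 4 and 118 and 439 in class 12 (0.72 ± 0.172, adjusted p = 0.021 in edgeR). For both, the classes did not overlap in RPM, as in 6425 of all 16011 tested spans. Both rises kept their direction but did not pass without the library block (adjusted p = 0.0936 for Igfbp5 and 0.11 for Fbxo32 in edgeR). Nor did they pass in nuclei of 4000 to 12000 reads (0.397 and 0.373) or in DESeq2. In libraries 1 and 2 the log2 differences were 0.73 and 1.25 for Igfbp5 and 0.46 and 0.91 for Fbxo32. Leaving out 1 sum gave 0.792 to 1.21 and 0.515 to 0.864, lowest for both without class 12 of library 2.

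The genes that fell were longer and held more reads than the typical tested span. Their median span was 191 kb against 29.5 kb over all tested spans, and their median was 184 reads against 53. Of the 42, 6 were shorter than the overall median, Plet1 among them at 15.1 kb. Over all tested spans, the median log2 difference was 0.10 in the shortest and -0.12 in the longest of 4 equal groups by length, whose median spans were 9.48 and 119 kb. Class 12 also had more of its reads in promoters, as given above, and the part of that in the gene-span calls was not tested. Scaling by all reads left 12 calls, 3 higher and 9 lower, and DESeq2 gave 1. Without the library block 7 passed. The fit on 8 sums called 92 spans, 11 when class 4 of library 1 was left out of it and 9 when class 12 of library 1 was. Spans of neighbouring genes can overlap, and a read then counts for both.

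The promoters of Plet1, Cd44 and Igfbp5 are shown as examples of gene spans that fell (Plet1 and Cd44) and that rose (Igfbp5), chosen after their values were seen. They are the 250 bases before the RefSeq start site (GRCm38.p6, the build mm10), with AP-1 sites (TGANTCA, either strand) in capitals. Plet1 lies on the plus strand at chr9:50494275-50494524, Cd44 on the minus strand at chr2:102901666-102901915 and Igfbp5 on the minus strand at chr1:72874866-72875115.
Plet1: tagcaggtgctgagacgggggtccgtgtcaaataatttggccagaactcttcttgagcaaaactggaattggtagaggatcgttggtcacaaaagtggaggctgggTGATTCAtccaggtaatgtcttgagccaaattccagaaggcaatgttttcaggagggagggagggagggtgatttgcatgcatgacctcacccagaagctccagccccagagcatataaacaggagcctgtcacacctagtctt
Cd44: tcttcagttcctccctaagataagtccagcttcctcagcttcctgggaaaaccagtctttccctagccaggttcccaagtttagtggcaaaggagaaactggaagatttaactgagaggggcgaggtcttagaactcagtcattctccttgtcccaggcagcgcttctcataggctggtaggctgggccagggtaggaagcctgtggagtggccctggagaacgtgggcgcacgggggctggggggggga
Igfbp5: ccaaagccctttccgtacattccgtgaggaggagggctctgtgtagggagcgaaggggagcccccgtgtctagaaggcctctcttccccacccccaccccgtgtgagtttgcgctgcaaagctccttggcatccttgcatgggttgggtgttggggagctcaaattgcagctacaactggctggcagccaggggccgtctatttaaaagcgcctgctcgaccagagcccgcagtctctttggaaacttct
Plet1 held 1 AP-1 site, starting at -144 from the start site, and Cd44 and Igfbp5 held none in this window. In the longer RefSeq windows, from 250 bases before to 50 after the start, 2 of the 23 called gene spans whose window lay inside a promoter region held an AP-1 site, against 298 of 6825 windows in all tested promoter regions (4.37%). The promoter region of Plet1 had 12.4 and 20.3 RPM in class 4 and 11.1 and 4.59 in class 12, and that of Cd44 had 29.9 and 24.8 against 1.59 and 17.4. That of Igfbp5 had 6.18 and 8.04 RPM in class 4 and 1.59 and 17.4 in class 12, lower in library 1 and higher in library 2. None of these promoter regions passed (adjusted p = 0.997 in edgeR).

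Of the fixed lists of genes, 0 members passed in either direction over gene spans, against 0.275% of all tested spans. The 16 basal markers had a median log2 difference of -0.13, with 5 lower and 2 higher in both libraries, where 28.0% of all tested spans were lower and 28.0% higher in both. Krt5, the basal keratin, had 20.6 and 25.7 RPM in class 4 and 12.7 and 10.1 in class 12 (-1.20, adjusted p = 0.378 in edgeR). Krt17, a keratin of embryonic and basal epithelia, had 55.6 and 32.2 against 23.8 and 15.1 (-1.24, adjusted p = 0.12 in edgeR). Krt14, the partner of Krt5, had 44.3 and 47 against 46.1 and 40.8 (-0.20). The Trp63 gene had 137 and 162 RPM in class 4 and 154 and 157 in class 12 (-0.06), and Acta2, smooth muscle actin, had 44.3 and 57.9 against 38.1 and 90.9 (0.28). The keratin levels of class 12 lay below those of class 4 in both libraries for Krt5 and Krt17, and the others overlapped.

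The 16 luminal markers had a median of -0.08, with 5 lower and 3 higher in both libraries. Krt8, the simple epithelial keratin, had 54.6 and 52.8 RPM in class 4 and 30.2 and 45.9 in class 12 (-0.53, adjusted p = 0.653 in edgeR). The 16 embryonic mammary genes had a median of 0.23, with 10 higher and 3 lower in both libraries. Sox9 had 54.6 and 35.1 in class 4 and 74.7 and 80.3 in class 12 (0.80, adjusted p = 0.186 in edgeR), and Sox10, a SOXE factor of fetal mammary cells, had 48.4 and 49.5 against 82.6 and 67.9 (0.48, adjusted p = 0.617 in edgeR). Hmga2, an oncofetal chromatin protein, had 219 and 240 against 195 and 191 (-0.36).

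The genes that encode AP-1 proteins and their relatives are a separate measure from the scores of their motifs. The 16 AP-1 genes had a median log2 difference of -0.01, with 6 lower and 6 higher in both libraries. The Fos gene had 106 and 71.4 RPM in class 4 and 85.8 and 93.2 in class 12 (0.01), and Jund had 65.9 and 75.6 against 113 and 98.2 (0.44, adjusted p = 0.554 in edgeR). Bach1 had 89.6 and 100 against 81 and 63.8 (-0.55). The 12 immediate early genes had a median of -0.08, with 7 below 0, and 3 were lower and 4 higher in both libraries. Ier2, the member with the largest positive difference, had 52.5 and 63.1 against 95.3 and 93.2 (0.58, adjusted p = 0.365 in edgeR). Accessibility over a gene is not its expression, which was not measured here.

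Markers of other cell types were summed in the same way. Summed over 10 stromal markers, class 12 had 310 and 301 RPM and class 4 had 279 and 271, against 1100 and 838 in the fetal nuclei of class 6, the class with the highest stromal sums of those examined. Over 6 endothelial markers the sums were 153 and 148 against 139 and 125, over 8 immune markers 98.5 and 77.6 against 75.2 and 91.4, and over 9 Schwann and melanocyte markers 432 and 451 against 404 and 396. Over 8 epidermal markers they were 79.4 and 76.6 against 73.1 and 79.8, and over 5 adipocyte markers 173 and 126 against 125 and 122. None of the members tested passed. Stromal, endothelial, adipocyte and Schwann and melanocyte sums were higher in class 12 in both libraries. On this scale, by all reads, the median log2 difference over all tested spans was itself 0.10. Relative to the typical span the stromal list had a median of -0.06, with 5 of 9 tested members below 0, the endothelial list 0.17, the adipocyte list 0.26 and the Schwann and melanocyte list 0.06. Their part in the results was not tested. Among defining markers, Ivl had 0 reads in class 12 in both libraries, Flg had 0 in class 4 in both, Lyz2 had 0 in class 4 of library 2 and Lum had 0 in class 4 of library 1.

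To place the classes against adult lineages, distal regions were sorted by the adult libraries alone into sets that were higher in 1 adult lineage than in both others (edgeR, adjusted p under 0.05 and a log2 difference of at least 1). The sets held 4018 basal, 2438 luminal progenitor and 8570 mature luminal regions. Reads in the adult basal set made up 7.84% and 7.59% of distal reads in class 12 (exact 95% intervals 7.74% to 7.95% and 7.54% to 7.65%) and 8.63% and 8.34% in class 4. In classes 5 and 9 they made up 4.20% to 4.67%, and in adult basal nuclei 14.8% and 14.3%. Class 12 thus had slightly less of the adult basal set than class 4 in both libraries, and both lay well above the luminal-like classes.

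The adult luminal progenitor set took 2.52% and 2.54% of distal reads in class 12 and 2.31% and 2.28% in class 4. The adult mature luminal set took 2.12% and 2.06% in class 12 and 2.90% and 3.01% in class 4, ratios of 0.731 and 0.684. The corresponding ratios of class 5 to class 9 were 0.664 and 0.657. Among tested regions, 213 of 298 mature luminal regions (71.5%) had a log2 difference below 0, against 61.4% of 2231 basal, 42.7% of 572 progenitor and 51.7% of all 17681 tested regions. The median differences were -0.51, -0.22, 0.15 and -0.03 in the same order. With 2 libraries no test of these shares was made, and the sets were chosen after other results of these data were known. Only 298 of the 8570 mature luminal regions held enough reads in classes 4 and 12 to be tested. Class 4 held more reads than class 12, so a region open mainly in class 4 passed the filter on reads more easily. How far this selection bears on the 71.5% and on the median of -0.51 was not tested.

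**Figure D5:**
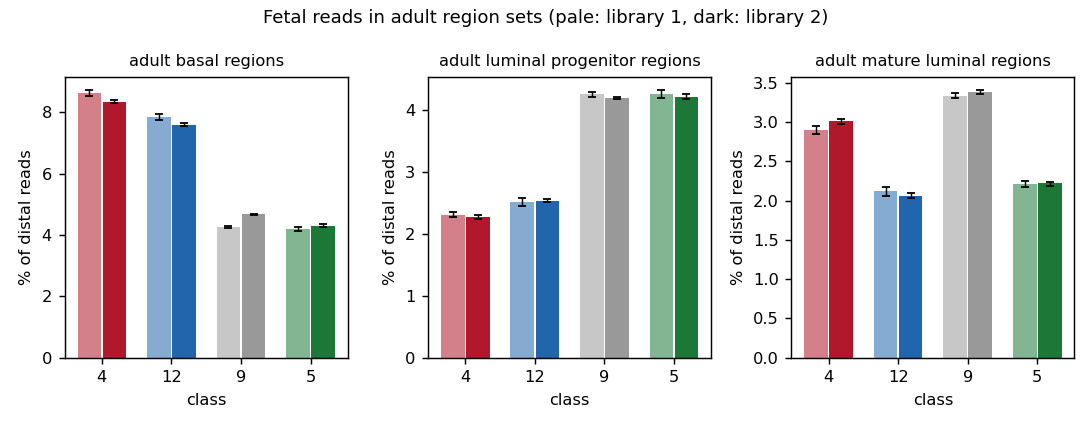
Share of distal reads (vertical, percent) in the adult basal, luminal progenitor and mature luminal sets for fetal classes 4, 12, 9 and 5. Pale bars are library 1, dark bars are library 2, and lines are exact 95% intervals that take each read as independent. The basal share of class 12 is 7.84% and 7.59% against 8.63% and 8.34% in class 4, and the mature luminal share is 2.12% and 2.06% against 2.90% and 3.01%.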

How the data were processed

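The deposited files were read positions with barcodes (1 line is 1 read, both ends of a fragment listed), lists of kept barcodes, promoter and distal regions 1000 bases wide, a table of motif scores with a class and the read count of each nucleus, and co-accessibility scores. The submitters' processing notes name Bowtie2, MACS2, bedtools and build mm10; their roles and versions are not given in the sources used here. The deposited motif scores are chromVAR deviation scores per the labels, whose settings are not given in the sources used here, and the deposited count of reads equalled the reads of the barcode in every nucleus. A further deposited table with 7846 columns that name no sample was not used. Reads of each library and class were summed over every region or gene span they overlapped by at least 1 base. The 4 sums were tested with edgeR 4.0.16 (quasi-likelihood, TMM factors, mean of at least 10 reads, library as a block, since both classes come from 1 library). Deviations of same-numbered sums correlated at 0.0165 (distal) and 0.12 (motifs). Mean motif scores were tested with limma 3.58.1 (library as a block), both in R 4.3.3, with Benjamini-Hochberg adjustment over all features. DESeq2 1.42.0 was an alternative. The SE of an edgeR log2 difference is its size over the square root of F. Levels (RPM) are reads per 1000000 of all reads of the sum; log2 differences of single libraries use 0.5 added reads. Named were up to 8 distal regions (mean of at least 20 reads) and 8 motifs per direction, up to 6 promoters per direction or, since none passed, the 4 with the lowest p, and genes of fixed lists. The members and lists were chosen with earlier results of these data known. The fits were tested on simulated data. Counts and plots used Python 3.11.15 and matplotlib 3.10.9. Some genes that these rules cover are not reported here.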

Additional observations from a re-analysis of the deposited data

How the results depend on the processing

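The count of 6 distal regions became 3 with scaling by all reads, 1 with DESeq2, 27 with a mean of at least 30 reads and 2 by read midpoint. The fit on 8 sums called 5, and 0 to 4 when 1 of its sums was left out. The count of 0 for the difference between the 12 to 4 and 5 to 9 contrasts became 1 with scaling by all reads and 0 to 1 without 1 sum. For promoters the fit on 8 sums called 0, and 0 to 2 without 1 sum. The 44 gene spans became 7 without the replicate block, 12 with scaling by all reads, 1 with DESeq2, 29 in nuclei of 4000 to 12000 reads and 92 in the fit on 8 sums. Against these 92, leaving out 1 sum gave 9 to 48, the low values without library 1 of either class (11 and 9). The 41 motif columns became 77 without the replicate block, 75 in nuclei of 4000 to 12000 reads, 0 in nuclei at or above the median reads, and 125 in the fit on 8 means. Against these 125, leaving out 1 mean gave 73 to 89. The distal share difference became -0.465 percentage points in nuclei of 4000 to 12000 reads. The causes were not tested.

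Values near 0 changed sign. The Fos gene span went from 0.01 to -0.0166 without the block, -0.0217 in DESeq2, -0.000177 by midpoint and -0.363 in nuclei of 4000 to 12000 reads, and ran from -0.397 to 0.289 when 1 sum or library was left out. Under the same omissions the Trp63 span ran from -0.185 to 0.113, Acta2 from -0.617 to 0.725, Krt14 from -0.384 to 0.0832, and the Tead3 and Tead4 motifs from -0.615 to 0.0416 and -0.438 to 0.0153. The Trp63 span was 0.0396 with scaling by all reads, and Acta2 was -0.0685 in nuclei of 4000 to 12000 reads. The Mafk motif was 0.0501 in those nuclei and 0.0976 in nuclei at or above the median reads.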

Other observations

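Promoter windows of RefSeq (250 bases before to 50 after a start site) could be placed in 6825 tested promoter regions. The AP-1 site TGANTCA was found on either strand in 298 of them (4.37%). Their median log2 difference, class 12 over class 4, was -0.10 against 0.01 in windows without the site, and 58.1% lay below 0 against 49.2% of all windows. Windows with the TEAD site ACATTCC (2.45% of windows) had a median of 0.09, and 38.9% lay below 0. Windows with the SOX site ACAATGG (1.71%) had 41.0% below 0, and those with the short nuclear factor I site TTGGCA (10.5%) had 47.8%. AP-1 was not alone on the lower side, as windows with the GATA site AGATAAG (1.2%) had a median of -0.09 and 59.8% below 0, and those with the RUNX site TGTGGTTT (0.938%) a median of -0.12 and 56.2% below 0. These are descriptions of letters in windows, with no test.

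In the authors' deposited co-accessibility scores, which pool all nuclei of the series, the region between Eef1g and Ahnak had its highest score (0.296) with a region nearest Ahnak, which encodes a large scaffold protein, and 0.24 with the promoter region of Ahnak. The region in Zc3h7a had its highest score, 0.409, with a region nearest Snx29, and 0.378 with the promoter region of Gspt1. The region in Gm36653 had its highest score, 0.414, with a region nearest Gm36565, and 0.182 with the promoter region of Igfbp3. The region in Rad23b had its highest score, 0.179, with a region nearest Klf4.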
